A study of Rattus norvegicus with 4 samples.

Results

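The phagocyte NADPH oxidase is the enzyme complex with which macrophages and neutrophils make superoxide. RNA of its subunits, of the proton channel that works beside it and of the catalytic subunits of related oxidases was measured in NR8383, an established line of alveolar macrophages that came from rat lung washings. The 8 genes were chosen by symbol: Cybb, Cyba, Ncf1, Ncf4, Rac2, Hvcn1, Nox1 and Nox4, out of 16581 genes that could be named on the array. Probe accessions matched 7 of the 8, with 9 probes on 27 spots per array. No probe was matched to Hvcn1, which is not analysed here.

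The series holds 1 group of 4 samples, called biological replicates in the series design text, so nothing was compared between conditions. Each sample is a water (H2O) control of 4 h. Its title carries ALI, an abbreviation left without a meaning there. The cells stood at 20 passages, were grown in DMEM with 15% heat-inactivated serum, glutamine and antibiotics, and spent 48 h after seeding in 25 cm2 flasks. Per the labels, about 50% of the cells of this line adhere and 50% float, and each RNA sample is a bulk measure. A high RNA level in few cells and a low level in all cells can therefore not be told apart. All samples come from a single established line, and the spread between arrays is that of cultures and arrays together.

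Each sample was read on 1 array, and the 4 arrays share a slide and a scan date. Between 49.2% and 50.3% of gene spots were well above background, and no spot was saturated. The markers of the labelled cell type were present: 8 of 8 macrophage markers, such as Cd68 and Csf1r, were detected. Of 9 neutrophil markers with a named probe, 7 were well above background on none of the arrays, with S100a8, S100a9, Csf3r and Elane among them. Camp and Lcn2 were detected. Of 6 epithelium markers and 7 smooth muscle and fibroblast markers none was detected on all arrays, and Acta2 and Myh11 were well above background on 2 and 3 arrays. Of 3 B cell markers with a named probe Pax5 was detected, and of 4 endothelium markers Pecam1 and Cdh5 were. No part of these other markers in the oxidase values was tested.

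The oxidase is built around a membrane cytochrome of a catalytic chain, encoded by Cybb, and a smaller partner chain, encoded by Cyba. It is idle until cytosolic subunits, among them those of Ncf1 and Ncf4, and a Rac GTPase join it at the membrane. Electrons then pass from NADPH across the membrane to oxygen, and the proton channel Hvcn1 is known to offset the charge that they carry. Nox1 and Nox4 encode catalytic chains of related oxidases, known mostly from epithelial, vascular and kidney cells. Cyba also partners both of these.

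Of the 7 matched genes, 5 were detected and 2 were not. Detected means that a probe was well above background, by the scanner software's flag, on 4 of 4 arrays; over all named genes that share was 51.0%. Cybb, Cyba, Ncf1, Ncf4 and Rac2, all parts of the phagocyte oxidase, were detected by every one of their 6 probes. Nox1 and Nox4 were well above background on none of the 4 arrays by any of their 3 probes, as were 42.6% of all named genes. Of the 7, 0 were well above background on some arrays only, a class of 6.43% of named genes. The catalytic gene of the phagocyte oxidase was thus measured in these cells, and those of the 2 other oxidases were not well above background. Probes differ in affinity, so signals are compared between arrays for 1 probe and never between genes.

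**Figure D1:**
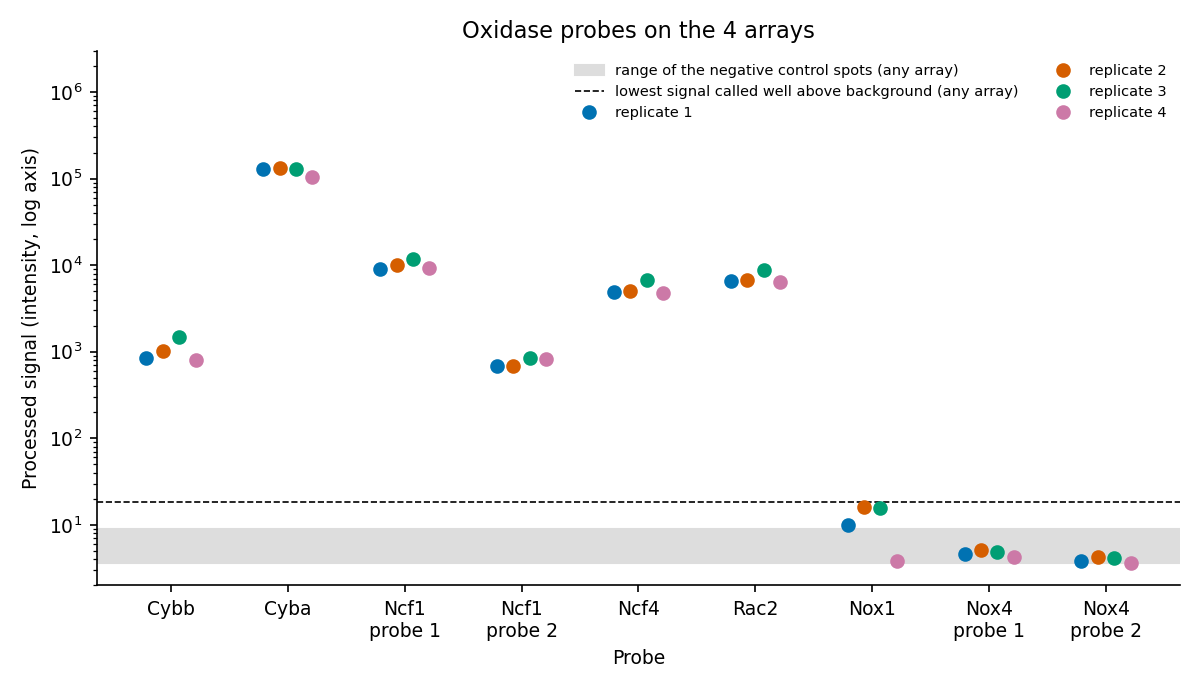
Processed signal (intensity, log axis) of each of the 9 probes on the 4 arrays, 1 point per array, with the range of the negative control spots shaded and the lowest signal called well above background (18.1) dashed. The 6 probes of Cybb, Cyba, Ncf1, Ncf4 and Rac2 lie above the dashed line on each array and the 3 probes of Nox1 and Nox4 lie below it.

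Cybb encodes the catalytic chain, which holds the haems and the NADPH site. Its probe gave processed signals of 850, 1029, 1484 and 803 on replicates 1 to 4. These are 44.3 to 71.5 times the lowest signal called well above background on the same array. The level, which is the log2 signal minus that of the array's 75th percentile, was -0.05, 0.14, 0.26 and -0.05, with a mean of 0.08 ± 0.15 (SD, n = 4). Replicate 3 was highest and replicates 1 and 4 were level with each other. The highest and the lowest array differed 1.24-fold, close to the median of 1.25-fold over the 8455 genes tested. With no scaling the SD of Cybb was 0.40 and the span 1.85-fold, and with scaling by the array median 0.36 and 1.78-fold. Replicate 3 was also the highest for Cybb with no scaling, with scaling by the median and with quantile normalization.

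Cyba encodes the partner chain, which stabilises the catalytic chain and offers the docking site for the cytosolic subunits. Its probe is printed 10 times on each array and gave mean signals of 129157, 131730, 127800 and 104176 on replicates 1 to 4. The levels were 7.20, 7.14, 6.69 and 6.97, with an SD of 0.23 (n = 4). Replicate 3 was lowest on this scale, although its processed signal before scaling was near those of replicates 1 and 2. On this scale the spots of 1 array varied less than the arrays did. The SD over the spots used was 0.06 to 0.10 on each array, and the spots of replicate 3 (6.55 to 6.87) did not overlap those of replicate 1 (7.03 to 7.28) or replicate 2 (7.09 to 7.27).

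The low value of Cyba on replicate 3 moved with the scaling. The 75th percentile itself was 1237 on replicate 3, against 878, 932 and 831 on replicates 1, 2 and 4. The 41 tested genes within 0.5 of the level of Cyba, a set that includes Cyba itself, had a median deviation of -0.28 from their own means on replicate 3, beside -0.31 for Cyba. With quantile normalization Cyba deviated by -0.04 there and its SD over the arrays fell to 0.05. With no scaling it deviated by 0.06 on replicate 3 and was lowest on replicate 4 (-0.24). With scaling by the array median it deviated by 0.03 on replicate 3 and was again lowest on replicate 4 (-0.21).

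**Figure D2:**
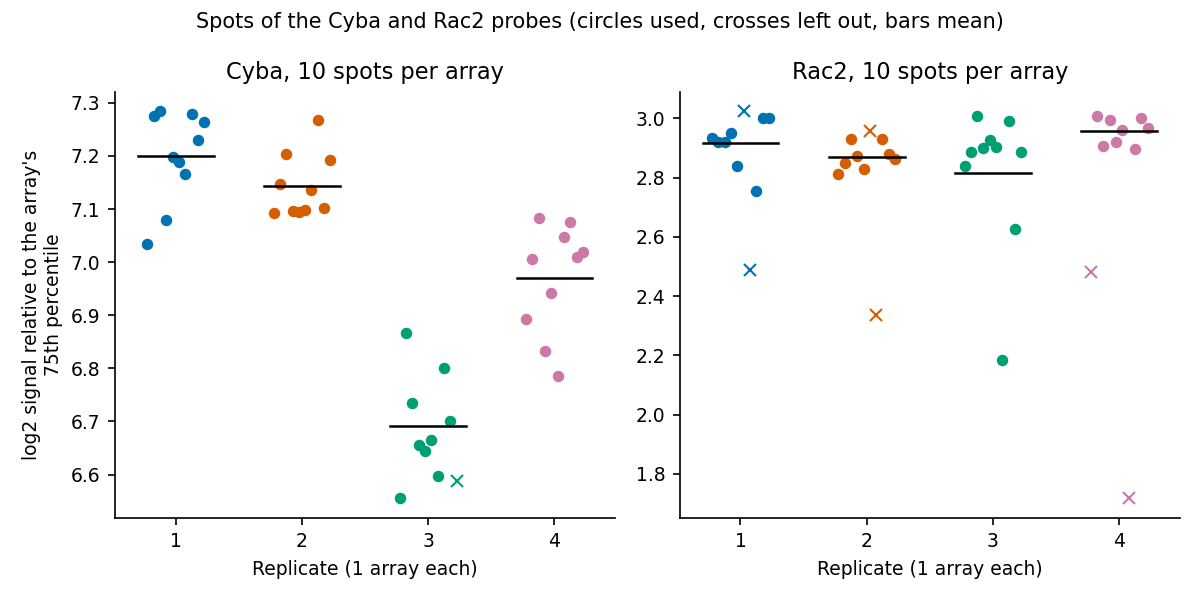
Levels of the single spots of the Cyba and Rac2 probes (log2 signal relative to the array's 75th percentile), by replicate; circles are spots used, crosses are spots left out for an outlier flag, and bars are the means of the spots used. The Cyba spots of replicate 3 sit between 6.55 and 6.87, below all spots of replicates 1 and 2, and for Rac2 a spot at 2.19 on replicate 3 lies below the other spots used.

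Ncf1 encodes the organizer subunit, which carries the other cytosolic subunits to the membrane once it is phosphorylated. It had 2 probes to the same transcript accession, and both were detected. The brighter gave signals of 9106, 10040.5, 11868 and 9174 on replicates 1 to 4. Its levels were 3.37, 3.43, 3.26 and 3.46, a mean of 3.38 ± 0.09 (SD, n = 4), so the arrays lay within 1.15-fold. The second probe gave signals of 685, 688, 852 and 825. Its levels were -0.36, -0.44, -0.54 and -0.01, a mean of -0.34 ± 0.23 (SD, n = 4). Both probes were lowest on replicate 3 and highest on replicate 4, but replicate 4 stood 0.33 above the mean of the second probe and 0.08 above that of the first. This order held for both probes with quantile normalization. With no scaling both were highest on replicate 3 (0.25 and 0.17 above the mean). With scaling by the array median the brighter probe was highest on replicate 3 (0.22) and the second on replicate 4 (0.14). With normexp background correction and quantile normalization the second probe kept the order. The brighter was then lowest on replicate 1 (-0.07) and highest on replicate 2 (0.06). The size of the spread thus depended on the probe.

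Ncf4 encodes a cytosolic subunit that binds the phosphoinositide of the phagosome membrane. Its signals were 4900, 5063, 6816 and 4731 on replicates 1 to 4. Its levels were 2.48, 2.44, 2.46 and 2.51, a mean of 2.47 ± 0.03 (SD, n = 4), and the arrays lay within 1.05-fold. Of the tested genes 0.946% had a smaller SD, and of the 699 within 0.5 of its level 1.57% did. For Cybb, Cyba, Ncf1 and Rac2 the shares of all tested genes were 54.7%, 78.0%, 20.7% and 8.39%. The SD of Ncf4 was 0.04 with quantile normalization, 0.24 with no scaling and 0.23 with scaling by the array median.

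Rac2 encodes the Rac GTPase of blood cells that switches the assembled oxidase on. Its probe is also printed 10 times, of which 8, 8, 10 and 8 spots were used on replicates 1 to 4. The mean signals were 6628, 6821, 8709 and 6454. The levels were 2.92, 2.87, 2.82 and 2.96, a mean of 2.89 ± 0.06 (SD, n = 4), with replicate 3 lowest on this scale and highest with no scaling (0.29 above the mean). A single spot in column 163 of the 164 columns of the array was the lowest of the 10 on 4 of 4 arrays. It stood at 2.49, 2.34, 2.19 and 1.72 and carried an outlier flag on 3 arrays, but not on replicate 3. With that spot left out everywhere, a choice made after the values were seen, the levels were 2.92, 2.87, 2.89 and 2.96, with an SD of 0.04, and replicate 3 was no longer lowest.

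No excess spread between the cultures was called for the 5 detected genes. In the limma variance test, which sets the variance of a gene over the 4 arrays against the variance fitted at its signal, 20 of 8455 genes passed an adjusted p of 0.05, a share of 0.237%. Of the 5 genes 0 passed, and 0 had an unadjusted p under 0.05; the fit without trend also called 0 of them. Their smallest unadjusted p, 0.179, was that of Cyba (adjusted p = 0.995, limma), whose SD of 0.23 stood beside a fitted SD of 0.16. For Ncf4 the fitted SD was 0.12, and for Rac2 0.12. The count over all genes depended on the arrays: it was 51, 61, 3 and 10 without replicates 1, 2, 3 and 4. Of the 5 genes 0 passed in each of these fits. None spanned over 2-fold, as 3.26% of the tested genes did. The count behind that share, 276 genes, was 129 without replicate 3 and 162 without replicate 4, 833 with no scaling and 672 with scaling by the array median. The test asks for excess spread only, so an SD below the fitted one, as for Ncf1, Ncf4 and Rac2, was not tested.

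**Figure D3:**
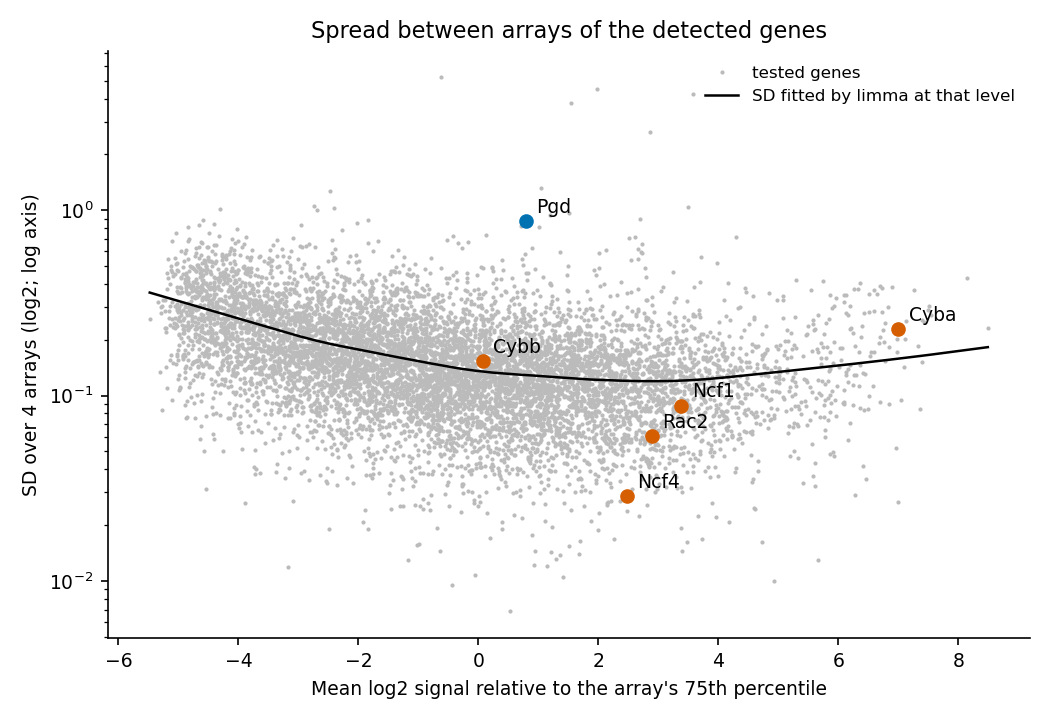
SD over the 4 arrays (log2, log axis) against the mean level for the 8455 tested genes (grey), with the SD that limma fitted at each level (line), the 5 detected oxidase genes (orange) and Pgd (blue). Ncf4 (0.03), Rac2 (0.06) and Ncf1 (0.09) lie below the line, Cybb (0.15) and Cyba (0.23) slightly above it, and Pgd (0.87) far above.

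The arrays on which the detected genes were high or low were not shared by all of them. On replicate 3 the deviation from the mean was 0.19 for Cybb, -0.01 for Ncf4, -0.07 for Rac2, -0.12 for the brighter Ncf1 probe and -0.31 for Cyba. With no scaling replicate 3 was above the mean for all 6 probes, from 0.06 for Cyba to 0.55 for Cybb, as the median of all tested genes was (0.34); with scaling by the array median that median deviated by 0.30 there. These 4 samples are of 1 group and too few for a correlation, so none is given.

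**Figure D4:**
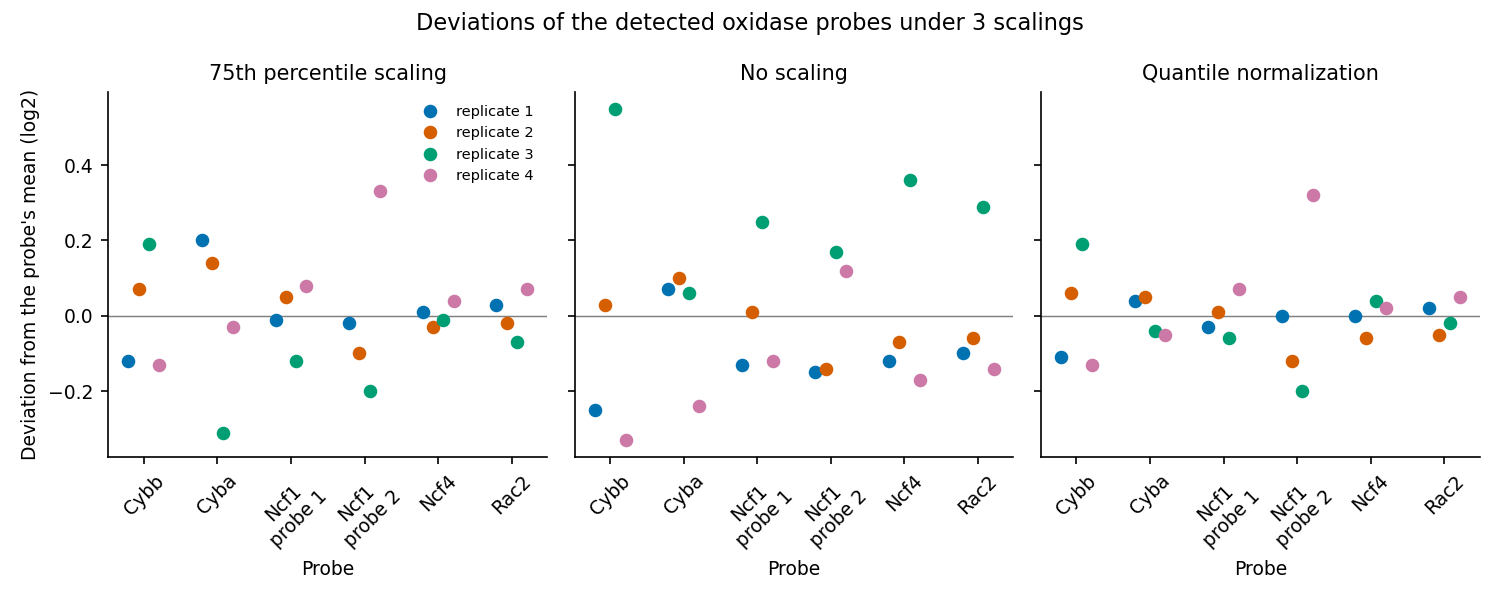
Deviation of each detected probe from its own mean (log2) on the 4 arrays, 1 point per array, under 75th percentile scaling, no scaling and quantile normalization. Cyba on replicate 3 moves from -0.31 under the first to 0.06 under the second and -0.04 under the third, while Cybb is highest on replicate 3 under all 3.

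Nox1 encodes the catalytic chain known from colon epithelium. Its probe gave signals of 9.83, 16.3, 15.8 and 3.79 on replicates 1 to 4, all below the lowest signals called well above background (19.2, 21.5, 20.7 and 18.1). On replicates 1 to 3 it was brighter than each of the negative control spots used, whose highest signals were 7.78, 6.75 and 7.46, and on replicate 4 it was at or below 74.2% of them. The software's weaker flag, positive and significant, was set on the same 3 arrays. By that flag and by the limit set from the negative controls Nox1 therefore counted as detected on 3 of 4 arrays. The error that the software gave for the signal was 28.5% to 41.6% of it on those arrays, beside 10.0% for Cybb. A signal near the limit cannot show how much Nox1 RNA was there.

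Nox4 encodes a catalytic chain that is active without the cytosolic subunits. One of its probes, to the curated transcript, gave signals of 3.85, 4.27, 4.11 and 3.66, at or below 91.6% to 96.4% of the negative control spots. The other, to a predicted transcript, gave 4.58, 5.08, 4.89 and 4.30, at or below 30.2% to 37.1% of them. Neither probe was above background by the main flag, the weaker flag or the negative control limit on any array. Nox4 RNA was thus not detectable with either probe.

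Promoter sequences are shown for Cybb, Ncf1 and Nox1, because these held a match to the motifs searched and lie on both sides of the detection call. RefSeq's table for the assembly GRCr8 holds a promoter for 5 of the 8 genes, and the 250 bases before the start are printed 5′ to 3′ on the strand of the gene. Capitals mark GAGGAA, a core that the macrophage factor PU.1 (gene Spi1) can bind. They also mark GAAA repeated with any 2 bases between, a core of interferon regulatory factors. Only GAGGAA was in the plan, and the GAAA repeat was added to it. Both strands were searched over 250 bases before to 50 after the start.
Cybb, chrX:16065066-16065315, minus strand: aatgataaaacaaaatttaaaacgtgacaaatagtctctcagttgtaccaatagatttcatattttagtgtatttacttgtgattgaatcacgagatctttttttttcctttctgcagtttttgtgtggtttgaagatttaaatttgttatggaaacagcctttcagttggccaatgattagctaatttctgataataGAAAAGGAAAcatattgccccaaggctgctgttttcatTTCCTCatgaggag
Ncf1, chr12:28121635-28121884, plus strand: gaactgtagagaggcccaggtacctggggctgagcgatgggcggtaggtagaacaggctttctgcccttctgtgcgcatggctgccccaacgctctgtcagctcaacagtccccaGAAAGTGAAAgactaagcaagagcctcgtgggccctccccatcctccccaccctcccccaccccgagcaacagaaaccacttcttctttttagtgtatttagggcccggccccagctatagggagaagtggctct
Nox1, chrX:101595521-101595770, minus strand: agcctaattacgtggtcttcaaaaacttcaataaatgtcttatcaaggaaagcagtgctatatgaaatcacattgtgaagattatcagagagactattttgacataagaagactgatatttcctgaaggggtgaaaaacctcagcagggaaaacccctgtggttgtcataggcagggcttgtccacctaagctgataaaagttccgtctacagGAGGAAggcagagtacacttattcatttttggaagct

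The Cybb promoter held both motifs, and the Ncf1 and Nox1 promoters held 1 each. In Cybb, the GAAA repeat lay 43 to 52 bases before the start and GAGGAA, on the opposite strand, 9 to 14 bases before it. In Ncf1, the GAAA repeat lay 126 to 135 bases before the start. In Nox1, which was not detected, GAGGAA lay 32 to 37 bases before the start. The windows of Cyba (59.6% G and C) and Nox4 (72.8%) held neither motif, and that of Cybb was the poorest in G and C of the 5 (32.0%). GAGGAA occurs in 27.6% of the 33469 promoters of the table and the GAAA repeat in 3.92%. Among promoters of detected genes the shares were 27.0% and 3.18%, and among those of genes not detected 28.0% and 3.94%. A match is a description of these letters, not a binding site.

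The wider pathway was followed in 8 gene lists, which hold 80 genes beside the 8. Of these, 72 had a named probe, 58 were detected, 2 were well above background on some arrays and 12 on none. Each list count is read beside the 51.0% of all named genes that were detected. The members of the oxidase lists were picked as known parts of the pathway.

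The list of oxidase core genes and their relatives had 7 of 14 genes with a named probe detected. Beside the 5 genes above these were Cybc1, the chaperone of the cytochrome (0.50 ± 0.06, SD, n = 4), and Duoxa2 (-2.92 ± 0.22, SD, n = 4), a maturation factor of the dual oxidases. Nox3, Noxa1, Duox1, Duox2 and Duoxa1 were well above background on 0 of 4 arrays. The maturation factor Duoxa2 was thus detected on all 4 arrays (-3.19, -2.79, -2.69 and -3.03) and its partner oxidase Duox2 on none. Noxa1, an activator of Nox1, was positive and significant on all 4 arrays without being well above background. Noxo1, the organizer of Nox1, had no named probe.

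Of the small GTPases around Rac, with their exchange factors and inhibitors, 12 of 12 with a named probe were detected. Rac1, the widely expressed Rac, stood at 1.25, 1.34, 1.23 and 1.06 (1.22 ± 0.12, SD, n = 4). Rhog stood at 3.84 ± 0.14 and Cdc42 at 5.37 ± 0.09, the latter with 4 of 4 probes detected. The exchange factors Vav1, Vav2, Vav3, Tiam1 and Prex1 were among the 12, as were the inhibitors Arhgdia and Arhgdib, which hold Rac in the cytosol.

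Of 13 kinases and lipid enzymes of oxidase assembly, 9 were detected. Among the protein kinases C that phosphorylate the organizer subunit, Prkcd was detected by both of its 2 probes (3.00 ± 0.09, SD, n = 4), and Prkcb and Prkcz were well above background on none of the arrays. Prkca, also in this list, had no named probe. Pak1 (1.05 ± 0.06, SD, n = 4) was detected. The phosphoinositide kinases Pik3c3 and Pik3cg were detected, and Pik3cd was well above background on 1 array, as was Irak4. Pik3cd and Irak4 both carried the weaker flag on 4 arrays.

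Of 10 transcription factors known to act on oxidase genes, 8 were detected. Spi1, the factor PU.1, stood at 1.05, 1.28, 1.17 and 1.07 (1.14 ± 0.10, SD, n = 4). Irf1 stood at 1.09 ± 0.12 and Elf1 at -1.48 ± 0.17 (SD, n = 4). Irf8, which acts with PU.1 on the Cybb promoter, was well above background on 0 of 4 arrays by its 1 named probe, and so was Cebpa by both of its 2. The weaker flag was set for Irf8 on 4 arrays, and the negative control limit was passed on 1. For the 2 probes of Cebpa the weaker flag was set on 1 and 3 arrays.

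**Figure D5:**
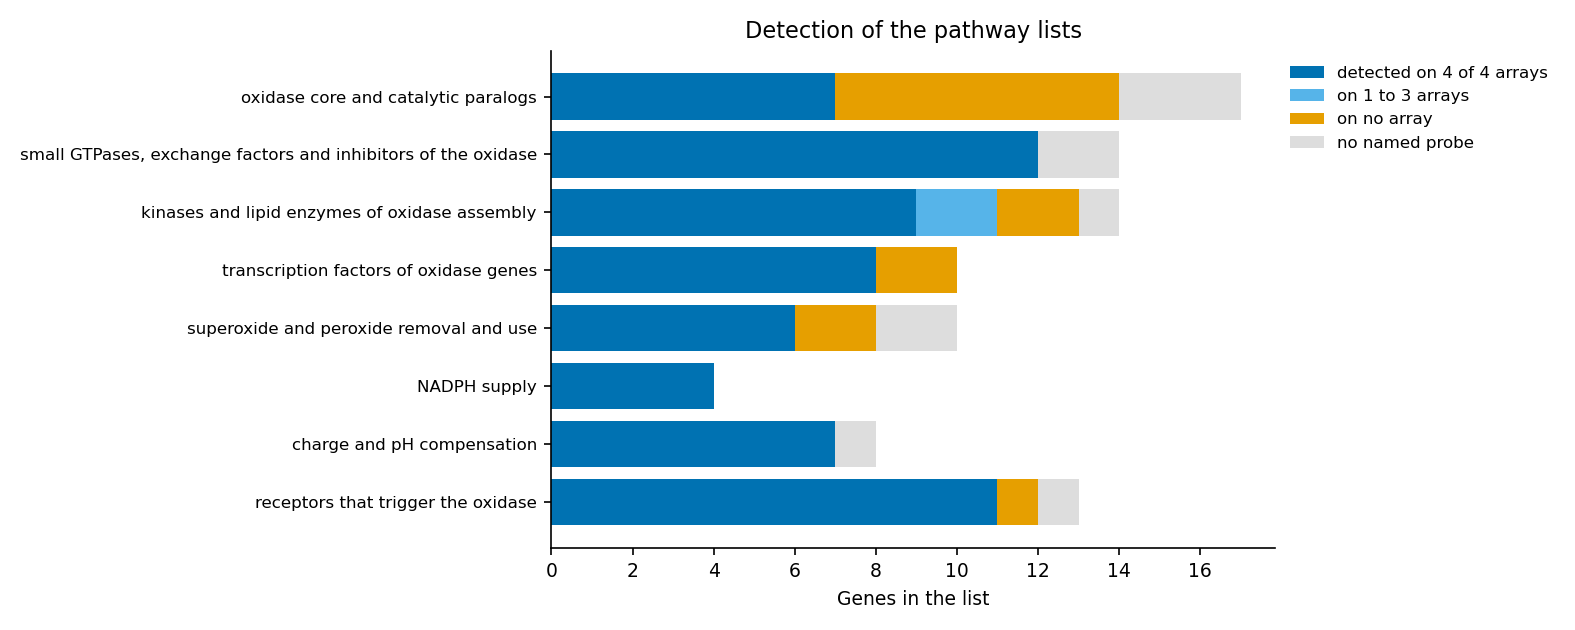
Number of genes in each of the 8 pathway lists that were detected on 4 of 4 arrays, on 1 to 3 arrays, on no array, or had no named probe. The small GTPase, NADPH supply and charge lists were detected in full among genes with a named probe (12, 4 and 7), and the core list to 7 of 14.

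Of the enzymes that remove or use the products of the oxidase, 6 of 8 with a named probe were detected. The superoxide dismutases Sod1 (5.16 ± 0.06, SD, n = 4) and Sod2 (2.60 ± 0.10) and the catalase Cat (-0.75 ± 0.23) were detected, and the extracellular dismutase Sod3 was not. Sod3 carried the weaker flag on 4 arrays and passed the negative control limit on 3. Of the peroxidases that use hydrogen peroxide, Epx was well above background on 0 arrays, and Mpo and Lpo had no named probe.

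Of the enzymes that supply NADPH, 4 of 4 were detected, with Pgd, Idh1 (2.30 ± 0.06, SD, n = 4) and Me1 (2.30 ± 0.20) among them. Pgd, a NADPH-forming enzyme of the pentose phosphate pathway, was the only gene of the 8 lists that passed the variance test (adjusted p = 0.0148, limma). Its levels were 0.45, 1.46, 1.52 and -0.30 on replicates 1 to 4, a span of 3.53-fold, with replicates 2 and 3 high and replicate 4 low. Its adjusted p (limma) ranged from 1.81e-06 to 0.910 over 14 alternatives, and the call was lost in 6 of them. It was lost without replicate 3 (adjusted p = 0.445, limma), where its SD was 0.88, and without replicate 4 (adjusted p = 0.0984, limma), where it was 0.60, against 0.87 over the 4 arrays. In the other 4 its SD was 0.87 to 0.88. Pgd has 1 named probe with 1 spot per array.

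Of the channels and pumps that offset charge and acid, 7 of 7 with a named probe were detected. They include the chloride-proton exchangers Clcn3 (-0.89 ± 0.11, SD, n = 4), Clcn5 (-1.75 ± 0.16) and Clcn7 (-2.30 ± 0.19). Of the receptors that trigger the oxidase, 11 of 12 were detected. The integrin chains Itgam (1.16 ± 0.09, SD, n = 4) and Itgb2 (3.43 ± 0.05), the beta-glucan receptor Clec7a (4.18 ± 0.02) and the Fc receptor Fcgr1a (2.45 ± 0.06) were among them. The formyl peptide receptor Fpr1, through which bacterial peptides set off the burst, was well above background on none of the arrays.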

How the data were processed

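RNA of 4 samples was hybridised, 1 sample per 1-colour Agilent array, from 100 ng of RNA with an integrity number above 7.5, per the labels. The deposited values are linear spot intensities from Agilent Feature Extraction 11.0.1.1, per the file headers: the processed signal and its error, corrected within the array, and the raw spot and background signals. The deposited flags are of other kind, 0 or 1 per spot, per the file headers. No step between arrays had been applied, per the file headers.

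Control spots and spots with an outlier flag (1.11% to 1.45%) were left out. Spots were averaged per probe as log2 and set against the 75th percentile of all gene spots. Accessions without versions were matched to RefSeq (GRCr8), which named 21109 of 45598 probes; where a gene had several probes, the one with the highest mean stood for it. A probe was well above background when over 50% of its spots were, and a gene was detected by at least 1 probe. The array headers name another build for the array's design, so the promoter coordinates are RefSeq's own. Variance was fitted with limma 3.58.1 in R 4.3.3 (intercept only, eBayes with trend and robust fitting). An upper-tail F test was then computed separately from limma's residual and fitted variances. It used the largest prior degrees of freedom for every gene, also where robust fitting had lowered them. P was adjusted by Benjamini-Hochberg over all 8455 genes, and the test was checked on simulated data. Protein sequences were not used here. Python 3.11.15 did the rest. The number of arrays limits the precision. The genes and lists were chosen with earlier results of these data known; text names every one of the 8 genes, the core list, the first 4 of each other list with a probe, and list genes with a call, beside others named for their role or detection after values were seen. Some genes that this rule names are not reported here. Alternatives are given in the closing section.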

Additional observations from a re-analysis of the deposited data

Results flagged for a closer look

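Of 30 detected genes named by rule, 1 had a single array far from the others. Prkcd stood at 2.86 on replicate 1 and between 3.03 and 3.06 on replicates 2 to 4, a gap of 0.860 of its whole range, above Dixon's critical value for 4 samples. Chance sets off this criterion in about 1 of 20 groups, and the whole range of Prkcd was 1.14-fold.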

How the results depend on the processing

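The count of 5 detected genes among the 7 held in all 9 alternatives (the weaker flag, the negative control limit, 3 of 4 arrays, all probes, outlier spots kept, and each replicate left out), and the counts of the 8 pathway lists stayed within 1.5 times theirs. Each alternative changed 1 setting only. The weaker flag or the negative control limit on 3 of 4 arrays, which Nox1 passed, was not among them. Epithelium markers (0) became 1 and smooth muscle and fibroblast markers (0) became 2 with the weaker flag or the negative control limit, and the latter became 1 with 3 of 4 arrays or without replicate 1. The planned identity between proteins was not run. The variance test called 0 of the 5 genes in all 14 alternatives, with an adjusted p (limma) of at least 0.714. The number of all genes called, 20, became 32 with scaling by the median, 10 with quantile normalization, 13 with the mean of all probes, 4 without trend, 79 with no filter and 10 with the percentile taken over probes or over detected probes (the last pair added after seeing the data); leaving out a replicate gave 3 to 61. The cause was not tested. Pgd lost its call in 6 of 14 alternatives (adjusted p, limma): with quantile normalization (0.0733), with the percentile over probes (0.0567) or detected probes (0.0542), without trend (0.910) and without replicate 3 (0.445) or 4 (0.0984); its SD, 0.87, was 0.60 without replicate 4 and 0.87 to 0.88 in the other 5. Genes spanning over 2-fold (276) became 79 with normexp and 3907 with no filter. Rac2 stood at 2.83 with outlier spots kept, against 2.89. No paired analysis was possible because the series holds 1 group. Nox1 and Nox4 are limited by signal near background.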
